A study of Homo sapiens and Mus musculus with 74 samples.

Results

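Bridge-like lipid transfer proteins are very long rods with a hydrophobic groove along their whole length. Standing between 2 membranes, they let phospholipids slide in bulk from one bilayer to the other. Vesicles are not needed for this. In kidney and brain the family is known for membrane contacts of the endoplasmic reticulum with mitochondria, lysosomes and lipid droplets and for the growth of the autophagosome, and inherited loss of several members causes disease of the nervous system. Here 7 of the 22484 mouse genes with a coding transcript in the table were followed: Vps13a, Vps13b, Vps13c and Vps13d, the mouse gene 4932438A13Rik, whose product is now called BLTP1, and Atg2a and Atg2b. Each was shown by the transcript with the longest protein. The 7 genes were named by family, but they were selected on measured values of these same libraries, namely their RNA, footprint and translation efficiency (TE) differences between Rpl41 KO and WT tissue. Those differences are therefore given as a description and were not used as a test.

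The KO mice carried a CRISPR-Cas9 deletion of the coding sequence of Rpl41, a very small ribosomal protein, made in C57BL/6J zygotes, and the WT mice were Rpl41+/+. Tissue for Ribo-seq came from 10-week-old males. Kidney and brain each gave 3 WT and 3 KO libraries of RNA-seq (poly(A) RNA) and of Ribo-seq, which sequences the mRNA fragments under single ribosomes (ribosome-protected fragments, RPF). Kidney also gave 3 WT and 3 KO libraries of disome-seq, which sequences the longer fragments under 2 stacked ribosomes. Library totals were 44998381 to 55077048 counts for RNA-seq of kidney, 84433838 to 123745890 for RNA-seq of brain, 11036643 to 42452425 in kidney Ribo-seq, 9498663 to 35881929 in brain Ribo-seq and 1187636 to 3018963 in disome-seq. The 7 genes together took 2160 to 10245 of the counts of a kidney Ribo-seq library and only 190 to 787 of those of a disome library. Rpl41 had 3695 to 7502 reads in WT kidney RNA-seq and 3 to 8 in KO, and 8981 to 12199 against 6 to 12 in brain. All 8 kidney markers were read in every kidney group and all 8 brain markers in every brain group. Levels are given as CPM, counts scaled to a common library total with TMM factors. In kidney the summed level of its markers was 4640 to 5640 CPM in WT and 5950 to 7810 CPM in KO Ribo-seq, and 12800 to 15200 CPM in WT and 16400 to 20500 CPM in KO RNA-seq, without overlap in either assay. Blood markers did not overlap between genotypes in brain Ribo-seq, at 636 to 1840 CPM in WT and 346 to 443 CPM in KO, or in kidney disomes, at 288 to 322 and 160 to 231 CPM, and pancreas acinar markers reached 109 CPM in a WT kidney Ribo-seq library but 1.77 CPM at most in KO. In brain RNA-seq, choroid plexus markers had 289 to 346 CPM in WT and 350 to 422 CPM in KO, without overlap. Immune cell markers there had 4.37 to 4.55 CPM in WT and 4.62 to 5.05 CPM in KO, also without overlap. The part of other cells in the values below was not tested, and in bulk tissue fewer cells of a type and less RNA per cell cannot be told apart.

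The 4 Vps13 genes encode 3166 to 4390 amino acids and lie on different chromosomes of GRCm38 (GENCODE M21). Vps13a, whose loss causes chorea-acanthocytosis and whose product works at mitochondria and lipid droplets, lies at chr19:16615686-16780927 on the minus strand with 72 exons. Vps13c, a late endosome and lysosome protein linked to early-onset Parkinson's disease, lies at chr9:67840396-67995638 on the plus strand with 85 exons. Vps13b, a Golgi protein whose loss causes Cohen syndrome, lies at chr15:35371160-35931229 on the plus strand with 62 exons. Vps13d, needed for mitochondrial shape and clearance, lies at chr4:144972622-145195005 on the minus strand with 70 exons. 4932438A13Rik is the longest, with 86 exons and 5005 amino acids at chr3:36863106-37053033 on the plus strand. Atg2a (chr19:6241668-6262335, plus strand, 40 exons) and Atg2b (chr12:105616136-105685211, minus strand, 42 exons) encode the autophagosome bridges, with 1914 and 2075 amino acids. Coding sequence made up 82.5% to 97.5% of these transcripts. Vps13c had the shortest 3' untranslated region, at 252 bases, and Vps13d the longest, at 2518 bases.

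The Vps13 proteins start with a conserved N-terminal region, and the first 90 coding bases are shown because they tell which members resemble each other and how far reads could be shared between them. Each stretch lies in 1 exon: Vps13a at chr19:16780680-16780769 on the minus strand, Vps13c at chr9:67840427-67840516 on the plus strand, Vps13b at chr15:35371961-35372050 on the plus strand and Vps13d at chr4:145190503-145190592 on the minus strand (GRCm38). Capitals mark bases that are the same in the other gene of the pair, which is Vps13c for Vps13a and Vps13d for Vps13b.
Vps13a: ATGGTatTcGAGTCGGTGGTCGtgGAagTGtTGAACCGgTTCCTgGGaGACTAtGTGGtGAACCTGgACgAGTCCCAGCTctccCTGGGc
Vps13c: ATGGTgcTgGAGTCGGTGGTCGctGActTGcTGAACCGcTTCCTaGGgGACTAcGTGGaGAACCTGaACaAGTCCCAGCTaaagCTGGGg
Vps13b: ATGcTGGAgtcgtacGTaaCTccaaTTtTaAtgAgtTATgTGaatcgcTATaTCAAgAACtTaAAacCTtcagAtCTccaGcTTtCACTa
Vps13d: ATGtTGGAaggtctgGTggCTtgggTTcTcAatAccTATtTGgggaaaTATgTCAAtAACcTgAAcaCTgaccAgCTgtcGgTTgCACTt

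Vps13a and Vps13c shared 70 of the 90 bases and Vps13b and Vps13d 46, while the other 19 pairs of the 7 genes shared 18 to 33 without gaps. Over the whole transcripts, the longest run of bases common to any pair was 20, between Vps13a and Vps13c. The other 20 pairs shared runs of 12 to 17 bases. A read of more than 20 bases could therefore not match 2 of these transcripts exactly. Genes on the opposite strand overlap exons of Vps13a (Gm9806), Vps13b (Cox6c and Gm48960), 4932438A13Rik (Gm12531) and Atg2b (Gskip), and whether reads were counted by strand is not given in the sources used here.

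In WT tissue the 7 mRNAs were translated at low to middling levels. In kidney, the RPF level per kilobase of coding sequence was highest for Vps13d, at 3.16 ± 0.140 CPM per kilobase (SD, n = 3), followed by Atg2a at 2.82 ± 0.305 and Vps13b at 2.78 ± 0.0829. Atg2b (2.49 ± 0.151), Vps13a (2.37 ± 0.308) and 4932438A13Rik (1.96 ± 0.197) came next. Vps13c, the lysosomal member, was lowest at 1.33 ± 0.0360, at the percentile 14.5 of 12262 coding genes with at least 10 reads in every library, against 34.1 for Vps13d. Neighbours in this order overlapped between libraries except Vps13b over Atg2b and 4932438A13Rik over Vps13c.

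In brain the order was another one. Atg2b led, at 4.55 ± 0.197 CPM per kilobase of coding sequence (SD, n = 3), before Vps13a at 3.99 ± 0.313, 4932438A13Rik at 3.90 ± 0.960 and Vps13c at 3.58 ± 0.453. Vps13d (3.24 ± 0.445), Vps13b (2.80 ± 0.335) and Atg2a (2.29 ± 0.491) followed. Every pair of neighbours overlapped between libraries. Atg2a, next to Vps13d in kidney, was last in brain, and Vps13c stood at the percentile 36.3 of coding genes in brain. On the RNA scale, per kilobase of transcript, Vps13c was lowest in both tissues, at 0.266 ± 0.0654 CPM per kilobase in kidney and 0.477 ± 0.184 in brain (SD, n = 3), with no overlap with the next gene, Vps13b, at 1.22 ± 0.0961 and 0.789 ± 0.0770.

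WT kidney and WT brain were compared directly with edgeR's quasi-likelihood test over all transcripts. Those with a Benjamini-Hochberg adjusted p under 0.05 were called. This contrast took no part in the choice of the genes, but its WT libraries did, through the KO against WT differences. Choosing on those differences can favour genes with low values in the WT kidney Ribo-seq libraries. The p-values of the WT comparisons of footprints, RNA and TE are therefore not independent of the choice. On the RPF scale 4 of the 7 were lower in kidney and none was higher, where 35.8% of all 82957 transcripts tested were called lower and 35% higher. Vps13c differed most. Its RPF level was 14.7, 14.7 and 15.4 CPM in the 3 kidney libraries and 45.7, 35.7 and 39.5 CPM in the 3 brain libraries, with no overlap (log2 fold change -1.44, standard error 0.13, adjusted p = 2.9e-07).

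4932438A13Rik had 32.4, 29.5 and 26.4 RPF CPM in kidney and 64.8, 42.0 and 68.7 in brain (log2 fold change -0.99, standard error 0.17, adjusted p = 0.00015). Brain library 2, with the smallest total of its group, was the lowest there, and it was still above every kidney library. Atg2b had 15.8, 16.3 and 14.5 RPF CPM in kidney and 29.2, 26.9 and 28.8 in brain (log2 fold change -0.87, standard error 0.12, adjusted p = 1.9e-05). Vps13a had 21.6, 20.2 and 25.8 in kidney and 41.1, 35.2 and 37.4 in brain (log2 fold change -0.75, standard error 0.14, adjusted p = 0.00019). The groups did not overlap for any of these 4 genes, and each of the 4 calls held in all 13 alternatives run. Vps13b (log2 fold change -0.02, standard error 0.13), Vps13d (-0.04, 0.13) and Atg2a (0.28, 0.16) did not pass, and their libraries overlapped. Among 473 other genes whose proteins reach 1914 amino acids, the length of Atg2a, the median log2 fold change was -0.44, against 0.02 over all 14909 genes with 1 transcript each.

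In the RNA of the same tissues 4 genes were higher in kidney, among them Vps13a and Atg2b, whose footprints were lower there, and Vps13c was lower, as in footprints. These 5 calls stood beside 28.3% of 88731 transcripts called higher and 35.8% called lower. The median of all transcripts stood at -0.20, so values are also given against that median. Vps13b had 15.3, 17.9 and 16.9 RNA CPM in kidney and 11.8, 9.69 and 11.1 in brain (log2 fold change 0.62, standard error 0.16, adjusted p = 0.0054, 0.83 above the median). Vps13d had 36.4, 44.2 and 33.3 in kidney and 25.9, 22.5 and 26.0 in brain (log2 fold change 0.62, standard error 0.16, adjusted p = 0.0073, 0.82 above the median). Both sets of libraries were apart. Atg2b (log2 fold change 0.60, standard error 0.19, adjusted p = 0.02, 0.80 above the median) and Vps13a (0.51, 0.16, 0.021, 0.71 above the median) were also higher in kidney. These 2 calls held in only 6 of 13 alternatives each. They were lost without WT brain RNA-seq library 1 or 2 or WT kidney RNA-seq library 2, and that of Atg2b also without WT kidney library 1.

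Vps13c was again lower in kidney, with 3.17, 2.26 and 3.76 RNA CPM against 4.46, 4.10 and 7.94 in brain (log2 fold change -0.85, standard error 0.30, adjusted p = 0.032, or -0.64 against the median). Brain library 3 stood above the other brain libraries. Without it the log2 fold change was -0.52 and the call was lost, as it was without WT kidney RNA-seq library 1 (-0.87) or 2 (-0.67). 4932438A13Rik had 24.8, 22.4 and 21.8 RNA CPM in kidney and 24.2, 17.6 and 26.8 in brain, which overlap, and its log2 fold change was 0.01 (standard error 0.18, 0.21 above the median). Atg2a, at 0.24 (standard error 0.19, 0.45 above the median), overlapped as well.

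TE, the footprint change that the RNA change does not match, was tested as the tissue by assay term. It was lower in kidney for 5 of the 7 and higher for none, where 8.09% of 96684 transcripts were called lower and 11.7% higher. Atg2b had a log2 TE difference of -1.45 (standard error 0.23, adjusted p = 0.0003), Vps13a of -1.24 (0.22, 0.00069) and 4932438A13Rik of -0.99 (0.28, 0.019). The calls of Atg2b and Vps13a held in all 20 alternatives. That of 4932438A13Rik held in 14 and was lost without WT brain Ribo-seq library 1 or 3, WT brain RNA-seq library 2 or WT kidney Ribo-seq library 3. Vps13d (-0.64, 0.22, 0.049) and Vps13b (-0.63, 0.20, 0.041) lay close to the threshold and held in 6 of 20 alternatives each. Leaving out any 1 of 10 of the 12 libraries ended either call. Vps13c (-0.58, 0.33) and Atg2a (0.06, 0.27) did not pass.

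RNA reads and footprints were not spread over these long transcripts in the same way, and this bears on every TE value. The count table lists shorter transcripts for 6 of the 7 genes whose bases lie almost wholly inside the full-length one, so their counts show where reads fell. This measure was chosen after the data had been seen. For 4932438A13Rik, a transcript covering bases 10415 to 15865 of 15883, or 33.7% of the length at the 3' end, held 86.7% to 93.6% of the RNA reads in kidney and 85.2% to 93.0% in brain. It held 30.0% to 34.4% of kidney and 24.6% to 30.7% of brain footprints. A transcript over bases 373 to 8963, 54.1% of the length in the 5' part, held 5.22% to 10.9% of kidney RNA reads but 56.3% to 62.0% of kidney footprints. The RNA level of this gene was thus in effect the level of the final part of its mRNA.

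**Figure D1:**
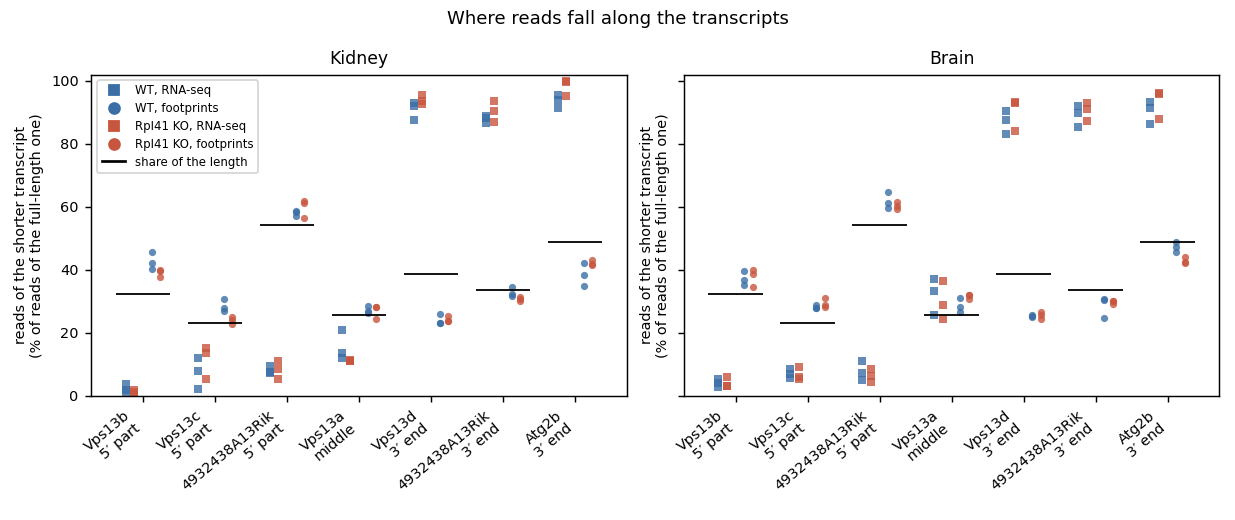
Reads counted on a shorter transcript as a percent of those on the full-length one, for 7 stretches of 6 genes in kidney (left) and brain (right). Squares are RNA-seq libraries, circles Ribo-seq libraries, colours the genotype, and the black line is the stretch's share of the length. RNA points lie far below the line in 5' parts and far above it at 3' ends, while footprints lie nearer to it. In the middle of Vps13a, brain RNA points lie from 24.5% to 37.0%, among the footprints.

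Vps13b, Vps13c, Vps13d and Atg2b had RNA reads and footprints apart as well, and Vps13a had them apart in kidney but not in brain. In Vps13a, 25.5% of the length in the middle took 10.9% to 20.8% of kidney RNA reads against 24.3% to 28.6% of kidney footprints, but 24.5% to 37.0% of brain RNA reads against 26.7% to 32.0% of brain footprints, which overlap. In Vps13d, 38.8% of the length at the 3' end took 87.6% to 95.5% of kidney RNA reads and 23.0% to 25.9% of kidney footprints. In Atg2b, 48.8% of the length at the 3' end took 91.4% to 99.8% against 34.9% to 43.0%. In Vps13b, 32.4% of the length in the 5' part took 0.716% to 3.88% of kidney RNA reads and 37.6% to 45.8% of kidney footprints. In Vps13c, 23.2% of the length in the 5' part took 2.16% to 15.2% of kidney RNA reads, from 100 to 166 WT and 33 to 73 KO reads on the whole transcript, and 22.7% to 30.8% of footprints. Over other genes with transcripts of at least 5000 bases, a 3' stretch with a median of 34.5% of the length took a median of 82.0%, 85.0% and 74.2% of RNA reads in the WT kidney libraries and 85.9%, 91.3% and 87.8% in the KO kidney libraries, so that KO lay above WT. In brain the medians were 76.9%, 75.2% and 65.2% in WT and 67.6%, 78.3% and 79.0% in KO, and the groups overlapped. In the 12 Ribo-seq libraries the medians were 22.4% to 28.2%.

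The tissue difference of some genes turned with the stretch that was read. Between bases 5842 and 8605 of Vps13a, in its middle, the RNA log2 fold change of kidney against brain was -0.55 (standard error 0.27) and the TE difference -0.26 (0.31), where the full transcript gave 0.51 and -1.24. The footprint value was nearly the same, -0.84 (0.16) against -0.75. In the 5' part of Vps13b (bases 407 to 4867), RNA gave -0.18 (0.52) and TE 0.39 (0.43), against 0.62 and -0.63 for the full transcript. For 4932438A13Rik the TE difference was -1.10 (0.40) over bases 373 to 8963 and -1.69 (0.35), -1.60 (0.39) and -1.68 (0.36) over the 3 shorter 5' stretches. Over its 3 stretches at the 3' end it was -0.81 (0.32), -0.91 (0.32) and -0.93 (0.33). For Atg2b it was -1.80 (0.25) over bases 3863 to 7546 and -1.94 (0.32) over bases 5952 to 7543. The TE values of 4932438A13Rik and Atg2b were below 0 in every stretch. For Atg2b, however, both stretches lie at the 3' end, 1 inside the other, so its 5' part was not examined. For Vps13c, not called in TE, the values were -0.45 (0.58) over its 5' part and 0.67 (0.49) over its last 7.4%. The part of read position in the TE values was not tested further.

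In Rpl41 KO kidney, all 7 genes had more footprints on the full-length transcript than in WT. The difference was 0.23 to 0.67 on the log2 scale (median 0.63, against -0.01 over all transcripts). The lowest KO library exceeded the highest WT library for all 7, as it did for 15.5% of all transcripts. For Atg2b it did so only just, at 15.41 CPM in KO library 1 against 15.39 CPM in WT library 2. Past the threshold of 0.05 were 5 of the 7, where 4.75% of 75266 transcripts were called higher. Because this contrast helped to choose the genes, nothing is read from these counts. Vps13c had 13.9, 13.9 and 14.5 RPF CPM in WT and 21.3, 23.7 and 22.2 CPM in KO (log2 fold change 0.67, standard error 0.10). Vps13b had 31.9, 32.1 and 30.3 in WT and 43.6, 52.1 and 51.9 in KO (0.65, 0.11). Their WT libraries were close together and KO library 1 was lowest for both. Over the last 7.4% of Vps13c, however, the footprint value was -0.39 (standard error 0.29), and over its 5' part 0.46 (0.14). The last 7.4% took 6.84%, 8.21% and 5.56% of Vps13c footprints in WT kidney and 4.17%, 3.55% and 2.56% in KO kidney, without overlap.

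**Figure D2:**
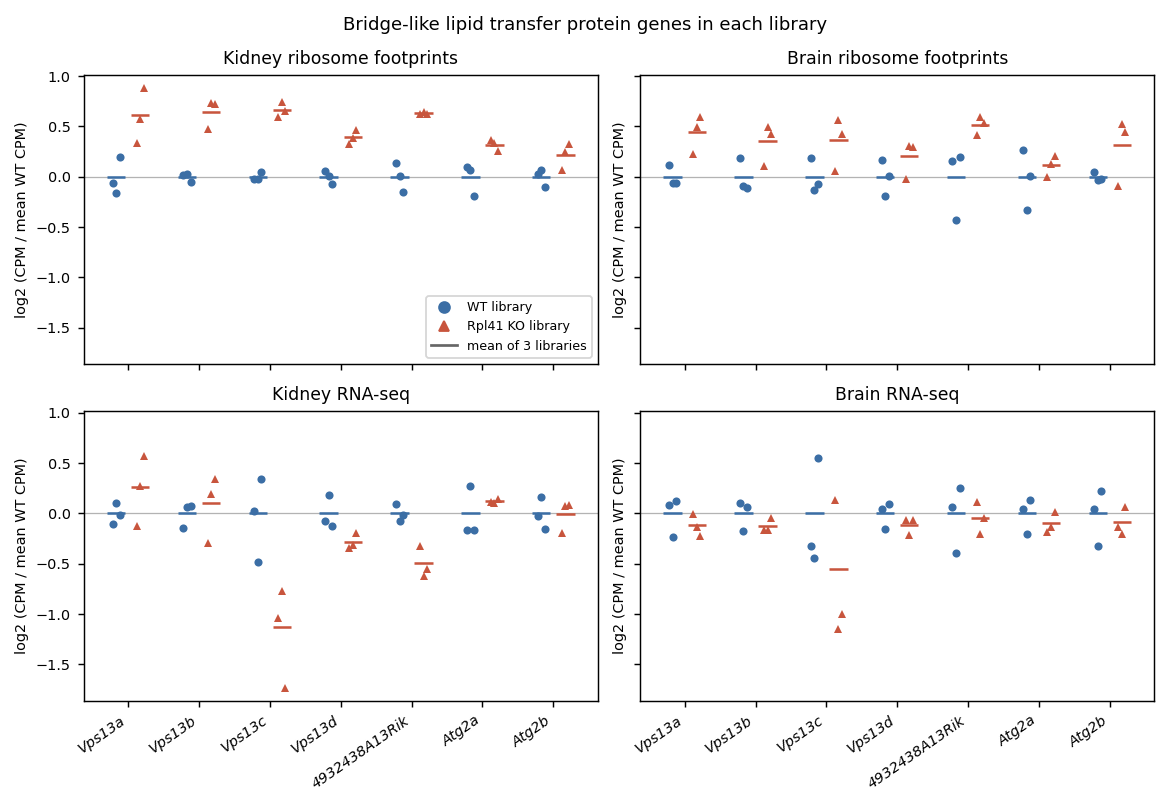
Each library's CPM over the mean WT CPM, on a log2 axis, for footprints (top) and RNA (bottom) in kidney (left) and brain (right). WT libraries are circles, KO libraries triangles, and lines are means of 3. Kidney footprints of all 7 genes are higher in every KO library than in any WT library, for Atg2b only just, while RNA of Vps13c, Vps13d and 4932438A13Rik is lower.

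4932438A13Rik had 30.6, 27.9 and 25.0 RPF CPM in WT kidney and 43.0, 43.5 and 42.9 in KO kidney (log2 fold change 0.63, standard error 0.11). Vps13a had 20.5, 19.1 and 24.4 in WT and 26.9, 31.7 and 39.4 in KO (0.63, 0.14). The KO libraries of Vps13a were spread widely, from 26.9 to 39.4. Vps13d had 40.9, 39.6 and 37.4 in WT and 49.2, 51.4 and 54.1 in KO (0.39, 0.10), the smallest difference of the 5 past the threshold. The autophagosome genes lay on the other side of it. Atg2a had 16.4, 16.1 and 13.4 in WT and 19.7, 19.2 and 18.3 in KO (0.31, 0.11), and Atg2b had 14.9, 15.4 and 13.7 in WT and 15.4, 17.4 and 18.4 in KO (0.23, 0.11). Just inside the threshold stood Vps13d and just outside it Atg2a. KO kidney Ribo-seq libraries 2 and 3 were the deepest, with 42452425 and 39384669 counts, and library 1 the shallowest, with 11036643. Without both deeper libraries the median log2 fold change was 0.36 and none of the 7 was past the threshold. The number past the threshold was 3 without WT library 1 or 2 and 1 without KO library 2 or 3. The calls over all transcripts fell as well, from 5838 in either direction to 517 without KO library 2, 285 without KO library 3 and 22 without both.

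Kidney RNA did not share this direction. It was 3 genes above and 4 below 0, with a median log2 fold change of -0.01. None was past the threshold with edgeR or DESeq2, where edgeR called 0.00992% of 70545 transcripts. An unadjusted p under 0.05 was reached by 2, beside 11881 of all transcripts. Vps13c fell furthest in value, with 2.71, 1.91 and 3.39 RNA CPM in WT and 1.30, 1.56 and 0.805 in KO (log2 fold change -1.12, standard error 0.36). 4932438A13Rik had 21.3, 18.9 and 19.7 in WT and 16.0, 13.0 and 13.6 in KO (-0.49, 0.15), and Vps13d had 31.1, 37.3 and 30.1 in WT and 25.9, 26.5 and 28.7 in KO (-0.28, 0.14). KO lay below WT in every library for these 3, as it did for 10.1% of all transcripts. The other 4 genes overlapped, from -0.01 for Atg2b to 0.26 for Vps13a. KO kidney RNA-seq libraries 2 and 3 listed the fewest transcripts with a read, 83287 and 86071 against 91222 to 93091 in the other 4, and had 1.76% and 1.67% of counts on mitochondrial rRNA against 0.436% to 0.962%. With both left out the median of the 7 was -0.29. KO library 1 decided the count of calls: without it 12466 transcripts passed in place of 7, among them 1 of the 7. Along the transcript, the last 7.4% of Vps13c took 34.5%, 36.0% and 32.5% of RNA reads in WT kidney and 38.4%, 54.5% and 54.5% in KO kidney, and over this stretch its RNA log2 fold change was -0.61 (standard error 0.44).

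The kidney TE difference was above 0 for all 7, from 0.20 for Atg2a to 1.79 for Vps13c (median 0.55, against 0.08 over all transcripts). Vps13c (1.79, standard error 0.32) and 4932438A13Rik (1.13, 0.18) had the largest values, then Vps13d (0.68, 0.17) and Vps13b (0.55, 0.23). Vps13a (0.36, 0.27), Atg2b (0.24, 0.20) and Atg2a (0.20, 0.21) had the smallest. The 3 genes with the largest TE values were those whose RNA values were lowest. Because TE is the footprint change beyond the RNA change, a lower RNA value raises TE by construction. None was past the threshold with edgeR, where 0% of 89685 transcripts were called. An unadjusted p under 0.05 was reached by 4 of the 7, beside 17404 of all transcripts. DESeq2 called 3 of the 7, beside 4483 of all transcripts. Without KO kidney RNA-seq library 1, 16559 transcripts and 3 of the 7 passed, and without WT kidney RNA-seq library 2, 427 and 2. Over the last 7.4% of Vps13c the TE difference was 0.24 (standard error 0.50). For 4932438A13Rik it was 1.20 (0.26), 0.96 (0.26), 0.59 (0.34) and 0.50 (0.43) over 4 stretches in the 5' part, the first being the longest, and 0.98 (0.21), 0.98 (0.20) and 1.01 (0.21) over 3 stretches at the 3' end. The middle of Vps13a gave 0.83 (0.37), the 5' part of Vps13b 1.29 (0.57), the 5' part of Vps13c 0.91 (0.60) and the 3' end of Vps13d 0.65 (0.20). The stretches of Atg2b gave 0.30 (0.24) and -0.10 (0.33).

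**Figure D3:**
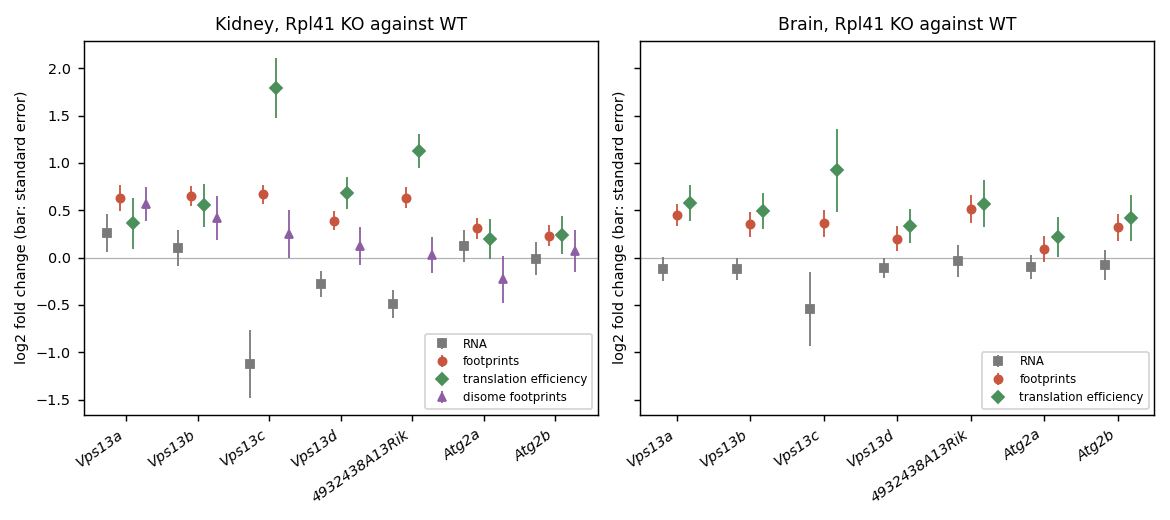
Log2 fold change of Rpl41 KO against WT with its standard error, for RNA (squares), footprints (circles), TE (diamonds) and, in kidney alone, disome footprints (triangles), in kidney (left) and brain (right). In both tissues every footprint and TE value is above 0, and Vps13c has the largest TE value with the lowest RNA value.

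Brain footprints were higher in KO by 0.09 to 0.51 on the log2 scale (median 0.35, against -0.01 over all transcripts). 4932438A13Rik had 66.3, 44.3 and 68.2 RPF CPM in WT and 79.6, 90.2 and 86.2 in KO (log2 fold change 0.51, standard error 0.15). Vps13a had 42.1, 37.2 and 37.1 in WT and 45.3, 54.8 and 58.5 in KO (0.45, 0.12). In these 2 genes every KO library was above every WT library, as in 9.4% of transcripts. In the other 5 the groups overlapped, and KO library 1 was the lowest KO library of each. Vps13c (0.36, 0.14), Vps13b (0.35, 0.13), Atg2b (0.32, 0.14), Vps13d (0.20, 0.13) and Atg2a (0.09, 0.14) followed. None was past the threshold with edgeR, beside 0.0345% of 81112 transcripts. An unadjusted p under 0.05 was reached by 5, beside 10214 of all transcripts, and DESeq2 called 2, beside 359.

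Brain RNA was lower in KO by 0.04 to 0.54 in value for all 7, with overlapping groups throughout (4.43% of transcripts had every KO library below every WT library). None was past the threshold with edgeR or DESeq2 (0.0134% of 89237 transcripts were), and none had an unadjusted p under 0.05. Vps13c again spread most, with 4.69, 4.31 and 8.59 RNA CPM in WT and 6.45, 2.64 and 2.94 in KO (log2 fold change -0.54, standard error 0.39). WT library 3 and KO library 1 were its high libraries, and these were the 2 brain RNA-seq libraries with the smallest share of reads at the 3' end. Brain TE differences were above 0 for all 7, from 0.22 for Atg2a to 0.92 for Vps13c (standard error 0.44), with a median of 0.49 against 0.01 over all transcripts. None passed with edgeR or DESeq2, and 3 had an unadjusted p under 0.05. Of 98861 transcripts, 4797 had an unadjusted p under 0.05, edgeR called 0% and DESeq2 18 transcripts.

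Disome footprints of kidney were not among the values that chose the genes. In KO against WT, 0 of the 7 passed with edgeR or DESeq2, where edgeR called 0.201% of 34754 transcripts. An unadjusted p under 0.05 was reached by 1 of the 7, beside 3749 of all transcripts. With the replicate number as a block, which pairs these libraries, 252 transcripts were called in place of 70, and again 0 of the 7. Vps13a had 34.2, 37.4 and 39.9 disome CPM in WT and 47.4, 58.1 and 60.4 in KO, from 44 to 110 reads a library. Its groups did not overlap, as in 8.07% of transcripts with KO above WT, and its log2 difference of 0.57 had a standard error of 0.18 (adjusted p = 0.21 by edgeR's quasi-likelihood test). Vps13b had 36.0, 41.5 and 19.9 in WT and 31.6, 56.9 and 51.7 in KO (0.42, standard error 0.23, adjusted p = 0.52). The remaining 5 lay between -0.23 for Atg2a and 0.25 for Vps13c, with standard errors of 0.19 to 0.25 and overlapping groups. With 12 to 204 reads per gene and library, a log2 difference of 0.57 did not pass at this depth.

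In WT kidney, the share of disome footprints relative to Ribo-seq was higher for 4 of the 7 genes and lower for none, where 25.3% of 64608 transcripts were called in each direction. Vps13a had a log2 ratio of disome to single-ribosome footprints of 0.79 (standard error 0.15, adjusted p = 0.0004 by edgeR's quasi-likelihood test) and 4932438A13Rik of 0.78 (0.17, 0.001). Both calls held in all 13 alternatives. Atg2b followed at 0.55 (0.16, 0.0098), which was lost without disome library 2 (0.36), and Vps13d at 0.53 (0.18, 0.023), which held in 6 of 13 alternatives and was lost without disome library 1 (0.42) or 2 (0.29). Vps13c (0.31, 0.18), Atg2a (0.21, 0.18) and Vps13b (0.13, 0.18) did not pass. Among 387 other genes with proteins at least as long as Atg2a, 217 were called higher and 58 lower. Their median was 0.71, against -0.15 over 11989 genes and 0.53 over the 7. The comparisons of WT kidney with KO kidney, with brain and with disomes share WT kidney libraries. They are not independent of each other or of the choice of the genes.

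Other genes of this length were called in KO kidney footprints too. Of 430 other genes whose proteins reach 1914 amino acids, 148 were called higher and 13 lower in KO kidney footprints, with a median of 0.35 and quartiles of 0.01 and 0.57. Vps13a, Vps13b, Vps13c and 4932438A13Rik lay above that upper quartile, Vps13d above the median, and Atg2a and Atg2b below it. In brain footprints the median of 475 such genes was 0.13 with an upper quartile of 0.29, and 5 of the 7 lay above it, the exceptions being Vps13d and Atg2a. None of the long genes was called by edgeR in brain footprints, or in RNA or TE of either tissue. In kidney disomes the median of 321 such genes was 0.18, with 2 called. The 7 were chosen on KO differences that include these footprint contrasts, so their place among the long genes restates that choice in part. Nothing is read from it. Membership and length were not separated by a test.

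The 3 further bridge-like proteins, 2610507B11Rik (BLTP2), Uhrf1bp1 (BLTP3A) and Uhrf1bp1l (BLTP3B), have 1429 to 2234 amino acids. None passed in any KO contrast. Their kidney footprint median was -0.12, with 2610507B11Rik at -0.20 (standard error 0.11) and Uhrf1bp1 at -0.12 (0.13), and their brain footprint median was 0.05. 2610507B11Rik is longer than Atg2a and Atg2b, and the part of length in these values was not tested. A list of 18 bridge partners, the scramblases, adaptors and anchors that work at the ends of the bridges, had 0 of 16 tested members past the threshold in kidney footprints with edgeR (median -0.11). Vmp1, a scramblase of the endoplasmic reticulum, stood at -0.57 (standard error 0.18) and Wdr45b, a phosphoinositide-binding partner of Atg2, at -0.37 (0.14).

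Among 30 shuttle and tube lipid transfer proteins, which carry lipids 1 or few at a time, 2 of 29 tested rose in KO kidney footprints and none fell, where 4.75% of all transcripts were called higher. With 2 calls the list is near that background. The 2 genes were Gramd1b, a cholesterol carrier, at 0.61 (standard error 0.14, adjusted p = 0.02 by edgeR's quasi-likelihood test) and Col4a3bp, the ceramide carrier CERT, at 0.42 (0.11, 0.036). The list's median was 0.05. Among 26 core autophagy genes, Pik3r4, a subunit of the phosphatidylinositol 3-kinase complex, rose by 0.56 (0.12, 0.018) and Map1lc3a, which encodes a protein of the autophagosome membrane, fell by 0.44 on the log2 scale (0.12, 0.046), with a list median of -0.14. These 2 of 26 stand beside 5838 of 75266 transcripts called in either direction, so this count too is not above the background. The 4 calls of these lists came down to 0 without KO kidney Ribo-seq library 2 or 3, to 2 without KO library 1 and to 1 without WT library 1. In kidney RNA, kidney TE, brain RNA, brain footprints and brain TE, 0 of 75, 77, 77, 76 and 77 listed genes tested passed with edgeR. An unadjusted p under 0.05 was reached by 7, 15, 1, 8 and 6 of them. Over all transcripts it was reached, in the same order, by 11881 of 70545, 17404 of 89685, 3087 of 89237, 10214 of 81112 and 4797 of 98861. DESeq2 called 5 in kidney TE, beside 4483 of all transcripts, 1 in brain footprints, beside 359, and 0 in the other 3. The values furthest from 0 were Rab7 (-0.83, standard error 0.45) and Gabarapl2 (0.72, 0.22) in kidney RNA, Esyt3 (-2.72, 1.14) and Map1lc3a (-1.09, 0.25) in kidney TE, Ulk1 (-0.45, 0.35) in brain RNA, Pik3c3 (0.51, 0.11) in brain footprints and Map1lc3b (0.85, 0.39) in brain TE. Esyt3 had too few kidney footprints to be tested in that assay alone, which limits its TE value.

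Across the 30 libraries, each centred on the mean of its tissue and assay, every member's log2 CPM correlated with the mean of the other 6, from a Pearson's r of 0.54 (Vps13a and Atg2a) to 0.87 (Vps13d). These are descriptions, since the points share libraries, depth and read position. Within the 12 Ribo-seq libraries r was 0.77 to 0.98, within the 12 RNA-seq libraries 0.20 to 0.75, and within the 6 disome libraries 0.21 (Vps13a) to 0.92 (Vps13d). The centring leaves the KO shift in, and the genes were chosen on that shift in RNA and footprints, so the ranges of RNA and Ribo-seq restate the choice in part. The ranges were not compared by a test. Of 4062 other genes with at least 10 reads in every library, the 5 most like the mean pattern of the 7 were Ranbp2 (r = 0.908), a nuclear pore protein, Prpf8 (0.899), the core protein of the U5 snRNP, Herc1 (0.885) and Herc2 (0.874), giant ubiquitin ligases, and Ahctf1 (0.881), a nuclear pore protein. Their proteins have 2243 to 4859 amino acids.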

How the data were processed

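The authors made monosome and disome libraries from RNase I-treated lysates and RNA-seq libraries from poly(A) RNA. They aligned reads with STAR, let reads match several places and deposited raw counts per transcript from featureCounts. Versions and the strand setting are not given in the sources used here. The 30 mouse columns were used. A table of human transcripts, with 28 columns titled as mouse samples, and the HEK293T samples were not analysed here. Of 142604 transcripts, 141374 matched GENCODE M21 (GRCm38, the build named in the submitters' processing notes as mm10), which gave lengths, positions and sequences.

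Counts were filtered with edgeR's filterByExpr, scaled by TMM within a tissue and assay, or over both tissues for the WT tissue comparisons, and tested with edgeR's quasi-likelihood F-test. All transcripts tested entered the Benjamini-Hochberg adjustment, and the threshold was 0.05. TE was the interaction of assay with genotype or tissue. Standard errors are the absolute log2 fold change divided by the root of F. CPM are TMM-scaled, so intervals beyond the SD of 3 libraries were not computed. Samples carry no label of animal, so p-values measure the spread between these libraries, which may in part be technical. No 2 replicates agreed within sampling noise (chi-square per degree of freedom of at least 1.42). The 7 genes and the lists were chosen with earlier results of these data known. Named in the text are the 7 genes, the 3 other bridge-like proteins, listed genes past the threshold (at most 3 a list, otherwise 2 with the largest differences) and the 5 most alike in pattern, with 0.5 added to CPM before log2. Gm and other overlapping genes were named for their position alone, and in text the listed genes without calls are those furthest from 0 among the ones so picked. Shorter transcripts of a gene served as stretches if at least 900 bases long, at least 90% inside the full-length transcript and at most 60% of its length.

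The replicate numbers were checked for pairing by the correlation of deviations from group means over genes. Numbers paired WT disome with WT Ribo-seq libraries (r = 0.17, 0.39 and 0.39), WT with KO disome libraries (0.12, 0.21 and 0.12), and RNA-seq with Ribo-seq libraries within each group but KO brain (0.13 to 0.44). They did not pair WT with KO in RNA-seq or Ribo-seq, or kidney with brain. On simulated counts, 200 transcripts drawn from those with more reads were changed by 2 on the log2 scale. In the disome comparison 99.5% were recovered (12 false calls among 33266 transcripts). In the WT tissue comparison of RNA 80.0% were recovered (15 among 86822), and in that of TE 57.0% (6 among 94864). The differences of the 7 genes in these comparisons were smaller than 2, so these shares do not give the power for them. Alternatives were DESeq2, library totals alone, no filter, at least 10 counts in every library, 1 transcript per gene, counts summed per gene, a replicate block, and each library left out. R 4.3.3, edgeR 4.0.16, limma 3.58.1, DESeq2 1.42.0, Python 3.11.15, numpy 2.4.6, pandas 2.3.3 and matplotlib 3.10.9 were used.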

Additional observations from a re-analysis of the deposited data

How the results depend on the processing

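The 4 calls of lower kidney footprints in WT (Vps13a, Vps13c, 4932438A13Rik and Atg2b) held under every alternative run on whole transcripts or genes, as did the lower TE of Vps13a and Atg2b and the higher disome ratio of Vps13a and 4932438A13Rik. Over the middle stretch of Vps13a, however, the TE difference was -0.26 (standard error 0.31), against -1.24 for the full transcript. The cause was not tested for any change below. In WT kidney against WT brain, the genes past the threshold in RNA were 5, but 1 with library totals alone, 3 with at least 10 counts in every library or 1 transcript per gene, and 2 to 5 without 1 library each. In TE they were 5, but 2 with library totals alone or 1 transcript per gene, 3 without a filter, and 2 to 5 without 1 library each. For disomes against Ribo-seq they were 4, but 2 without a filter and 2 to 4 without 1 library each. In Rpl41 KO against WT, kidney TE had 0 of the 7 past the threshold, but 3 with DESeq2 or 1 transcript per gene, 1 with counts summed per gene and 0 to 3 without 1 library each, and brain footprints had 0, but 2 with DESeq2 or without a filter. In kidney RNA 0 to 1 passed and in kidney footprints 1 to 5 without 1 library each. Median log2 fold changes moved with library totals alone to -0.17 in kidney RNA and 0.55 in kidney footprints, and without 1 library each they ran from 0.47 to 0.64 in kidney footprints and from 0.40 to 0.69 in kidney TE. Listed genes past the threshold ran from 0 to 9 in kidney RNA, 0 to 3 in kidney footprints and 0 to 10 in kidney TE without 1 library each. They were 5 with DESeq2 and 1 with 1 transcript per gene in kidney TE, and 1 with DESeq2 and 2 without a filter in brain footprints. Calls over all transcripts without 1 library each ran from 7 to 12466 in kidney RNA and 285 to 5843 in kidney footprints. In kidney TE they ran from 0 to 16559.

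Libraries left out after seeing the data gave, without KO kidney RNA-seq libraries 2 and 3, medians of -0.29 in RNA and 0.76 in TE. Without KO kidney Ribo-seq libraries 2 and 3, the footprint median was 0.36 with 0 of the 7 and 0 listed genes past the threshold. Without WT brain RNA-seq library 3 and KO brain RNA-seq library 1, 1 of the 7 and 7 listed genes passed in brain RNA and 1 of the 7 and 1 listed gene in brain TE. Over all transcripts, 9281 of 88360 then passed in brain RNA and 1688 of 91879 in brain TE.

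Under these alternatives, the values that changed sign belonged to genes that had not passed. Read over a shorter stretch of the transcript, a measure added after seeing the data, called values did turn, for RNA of Vps13a (0.51 to -0.55) and of Vps13b (0.62 to -0.18) and for TE of Vps13b (-0.63 to 0.39) in the tissue comparison. For 4932438A13Rik, the tissue difference in RNA was -0.26 with library totals alone, -0.02 without a filter, -0.19 with at least 10 counts, -0.22 with 1 transcript per gene, -0.06 with counts summed per gene and -0.18 to 0.09 without 1 library each, and its disome difference was -0.05 with library totals alone and -0.10 to 0.17 without 1 library each. For Atg2a, the tissue difference was -0.02 in RNA with library totals alone and -0.01 in TE with DESeq2, or -0.09 to 0.24 without 1 library each. For Atg2b, the disome difference was -0.01 with library totals alone and -0.04 to 0.23 without 1 library each, and for Vps13d it was -0.06 to 0.32 without 1 library each. The tissue difference in footprints was 0.03 for Vps13b with counts summed per gene, and -0.08 to 0.08 for Vps13b and -0.14 to 0.04 for Vps13d without 1 library each. The disome ratio of Vps13b was -0.03 without a filter and -0.10 to 0.27 without 1 library each, and the tissue difference in TE of Vps13c was 0.26 with counts summed per gene.

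The replicate block gave a kidney footprint median of 0.61 with 4 of the 7 past the threshold, the WT TE calls at 4 and the WT disome ratio calls at 4. In the block that pairs RNA-seq with Ribo-seq libraries, the WT TE calls were 5. With the block, Vps13d in WT TE (-0.64) was the one call of the 7 genes in the tissue and disome comparisons that was lost. Over all transcripts, DESeq2 called 540 in kidney RNA, 4483 in kidney TE, 359 in brain footprints, 23 in brain RNA and 18 in brain TE, where edgeR called 7, 0, 28, 12 and 0, and without a filter edgeR called 9936 in kidney footprints, 1573 in brain footprints and 278 in KO against WT disomes, in place of 5838, 28 and 70. With the replicate block it called 80 in brain footprints. With fewer features (1 transcript per gene, summed counts or at least 10 counts in every library) the counts of calls changed too, with fewer genes tested. Library totals alone moved the median of all transcripts in the WT tissue comparison from -0.20 to -0.45 in RNA and from 0.11 to 0.26 in TE. Transcript counts do not tell isoforms apart, and depth limits the disome values of Atg2a and Vps13c, with 12 and 13 reads in their lowest libraries.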
